A study of Mus musculus with 24 samples.

Results

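The nuclear-encoded subunits of the mitochondrial respiratory chain were examined in mouse cerebral cortex, in messenger RNA taken from astrocyte ribosomes and in the RNA left behind. Members were the genes whose symbol in the array annotation begins with Nduf followed by a, b, c, s or v and a number, with Uqcr, with Cox4 to Cox8 followed by a, b or c, or with Atp5, without the pseudogene ending -ps. This gave 75 of the 18193 genes with a usable probe set: 35 of complex I, 8 of complex III, 15 of complex IV and 17 of complex V. Only probe sets with a single gene symbol were used, and each gene was read from the brightest of its own, on average over the 24 arrays. Ndufa11, Ndufa11b, Ndufb4b, Ndufb4c, Ndufs6 and Ndufs6b were represented only by probe sets shared with another symbol and were left out, and Cox7b was not analysed here.

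All mice carried the aldh1l1 - eGFP-L10a transgene, in which the Aldh1l1 promoter, active in astrocytes, drives a ribosomal protein tagged with a fluorescent protein. Pulling down the tag yielded the bound fraction, which holds ribosome-associated RNA of astrocytes, and the supernatant gave the unbound fraction of the same cortex. Sleep-deprived mice had been kept awake with unfamiliar objects for 4 h of the light phase, waking mice were killed in the dark phase between 3 and 5 am after a wake bout of over 1 h, and sleeping mice were killed in the light phase, from 3 to 5 pm, at the end of a sleep bout longer than 45 min. Bound RNA was hybridised singly from 6 mice per state, and unbound RNA as 2 pools of 3 mice per state, animals 1 to 3 and animals 4 to 6. Waking and sleeping mice thus differed in clock time as well as in state, and state and clock time cannot be told apart. Sleep-deprived mice, kept awake in the light phase, differed from waking mice in time of day too, so the same limit holds for that pair. The transgene was present in every group, and an unbound pool also holds whatever astrocyte RNA escaped the pull-down.

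The respiratory chain passes electrons from NADH through complex I (NADH dehydrogenase), complex III (the cytochrome bc1 complex) and complex IV (cytochrome c oxidase) to oxygen, and complex V (ATP synthase) uses the resulting proton gradient to make ATP. Most subunits are encoded in the nucleus and imported, while a few core subunits are encoded by mitochondrial DNA. Several subunits of complexes IV and V exist as paralogues with tissue-biased expression. Astrocytes are known for strong glycolysis and lactate release, and they also carry respiring mitochondria in their fine processes.

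Values are log2 intensities as deposited. The median gene itself moved between groups, by 0.16 between fractions and by -0.12 to 0.30 between states within a fraction, so each difference below is given relative to the median gene of the same comparison unless it is called as fitted. Calls rest on the differences as fitted, from limma with Benjamini-Hochberg adjustment over all 18193 genes and a threshold of 0.05. The pull-down showed in every array: the mean of 12 astrocyte markers was 12.51 to 12.76 in bound arrays and 9.27 to 9.87 in unbound arrays, and that of 12 neuron markers 9.76 to 10.41 in bound arrays and 11.74 to 12.02 in unbound arrays. Aldh1l1 was 13.2-fold higher in the bound fraction (3.72 ± 0.11, SE, adjusted p = 7.44e-18). Markers of meningeal cells also ran higher in bound RNA, 7.1 to 8.65 against 6.23 to 6.78 in unbound RNA. Markers of the choroid plexus and ependyma spanned 5.25 to 8.78 in bound arrays and 4.76 to 6.53 in unbound arrays.

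Respiratory chain transcripts gave strong signals: 52 of the 75 members had a mean log2 intensity above 12. The median over members was 12.49 to 12.73 in bound arrays of sleep-deprived mice, 12.5 to 12.81 in those of waking mice and 12.51 to 12.75 in those of sleeping mice. In the unbound pools it was 11.86 to 12.01, 12.05 to 12.23 and 11.85 to 11.91 in the same order of states. Every bound array therefore lay above every unbound array, while the 3 states overlapped within the bound fraction. In bulk RNA, fewer cells of a type and less RNA per cell cannot be told apart. The brightest probe sets of each complex belonged to Ndufb7 in complex I (mean 13.84), Uqcrh in complex III (13.06), Cox5b in complex IV (13.85) and Atp5a1 in complex V (13.6). Cox7c (2.31), Ndufb4 (3.07) and Cox7b2 (5.61) lay below 5.75, the median of all probe sets, and Cox8c (5.79) lay just above it. The signal of these 4 was dim.

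Between fractions, 57 of 75 members were higher in bound RNA and 3 were lower. Among all genes 42.2% were called higher and 27.2% lower. The members' median difference was 0.37, or 1.29-fold, and 59 of 75 lay above the median gene; with quantile normalization repeated over all arrays the median was 0.16. In 41 members every bound array exceeded every unbound array, and in Ndufb4 alone every bound array fell below; over all genes those shares were 17.2% and 10.1%. The split depended on the scaling: with that normalization 45 members were higher and 7 lower, against 39.6% and 29.9% of all genes, and with each array centred on its median 38 were higher and 15 lower, against 27.8% and 42.1%. Within single states the counts were 50 higher and 1 lower in sleep-deprived mice (33.9% and 19.1% of all genes), 42 and 2 in waking mice (27.1% and 23.1%) and 59 and 2 in sleeping mice (33.7% and 18.6%). The 3′ minus 5′ signal of control probe sets is larger where less of the 5′ end of a transcript is represented. For Gapdh it was 0.31 to 1.04 in bound arrays and 1.34 to 1.75 in unbound arrays, with no overlap, and for Actb it was -0.42 to -0.06 in bound arrays and -0.45 to 0.04 in unbound arrays, with full overlap. The part of RNA quality in these differences was not tested.

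**Figure D1:**
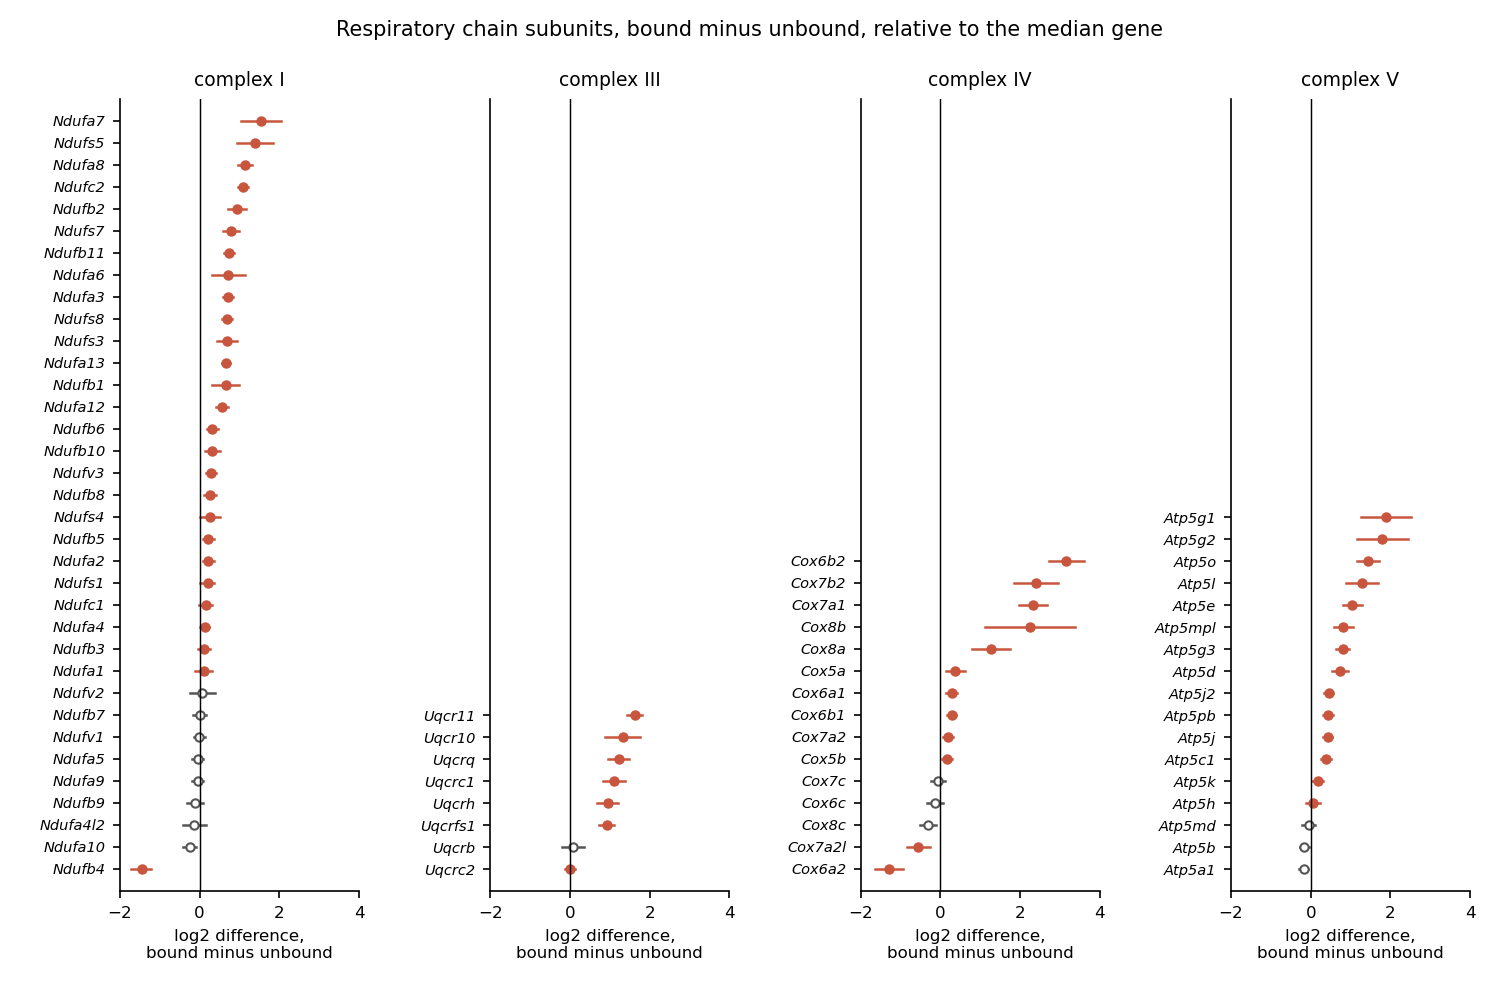
Bound minus unbound log2 difference of all 75 members relative to the median gene (x axis), 1 panel per complex, with 95% intervals as bars. Filled red points passed the threshold and open grey points did not; Cox6b2 stands farthest to the right at 3.16, and most members lie right of 0.

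Complex III had the highest median of the 4 complexes, with 7 of its 8 members higher, none lower and a value of 1.02, or 2.03-fold. Uqcr11, a small subunit of that complex, had a lowest, median and highest value of 12.39, 12.67 and 12.92 in bound arrays, against 10.71, 10.88 and 11.01 in unbound arrays. The groups did not overlap, and the difference was 1.62 ± 0.10, or 3.08-fold (limma, adjusted p = 4.7e-13). Uqcrc1, the core 1 protein, ran from 10.13 to 11.29 in bound arrays and from 9.24 to 9.66 in unbound arrays, a difference of 1.10 ± 0.13. Uqcrfs1, the Rieske iron-sulfur protein that hands electrons to cytochrome c1, differed by 0.92 ± 0.09. Uqcr10, Uqcrq and Uqcrh differed by 1.32, 1.22 and 0.95. Uqcrb did not pass (0.07, adjusted p = 0.112), and Uqcrc2, the core 2 protein, passed as fitted but stood level with the median gene at -0.00.

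In complex V, 14 of 17 members were higher and none lower, with a median of 0.45. The 3 that did not pass were both measured subunits of the catalytic head and Atp5md, a small subunit of the membrane part (-0.05, adjusted p = 0.214). Atp5a1, the alpha subunit, had a lowest, median and highest value of 13.41, 13.59 and 13.7 in bound arrays and 13.47, 13.65 and 13.72 in unbound arrays. Atp5b, the beta subunit that carries the catalytic sites, had 12.7, 12.8 and 12.97 in bound arrays and 12.65, 12.84 and 12.85 in unbound arrays. Both genes overlapped between the fractions, at -0.18 (95% interval -0.30 to -0.06, as fitted -0.02, adjusted p = 0.764) for Atp5a1 and -0.16 (-0.28 to -0.04, as fitted 0.00, adjusted p = 0.949) for Atp5b. The other probe sets of Atp5a1 gave -0.16 at a mean of 13.37 and 0.36 at a mean of 12.08. Members with larger differences included Atp5o (1.44), which joins the head to the stalk, Atp5l (1.29), a subunit g of the membrane part, and Atp5e (1.04), the epsilon subunit of the central stalk.

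The 3 genes for subunit c, Atp5g1, Atp5g2 and Atp5g3, encode the same mature protein, which forms the rotating ring in the membrane. Atp5g1 had 11.08, 12.15 and 12.94 in bound arrays as lowest, median and highest, against 9.88, 10.01 and 10.3 in unbound arrays, a difference of 1.89 ± 0.30, or 3.71-fold (adjusted p = 3.93e-06). Atp5g2 had 10.92, 11.82 and 12.63 in bound arrays, against 9.39, 9.94 and 10.15 in unbound arrays, a difference of 1.80 ± 0.31. Atp5g3 had 12.95, 13.21 and 13.43 in bound arrays, against 11.99, 12.26 and 12.44 in unbound arrays, a difference of 0.80 ± 0.07, or 1.74-fold. None of the 3 overlapped between the fractions. Atp5g1 and Atp5g2 also differed strongly between 2 sets of animals, by -1.35 and -1.39, and Atp5g3 by -0.20, so the 250 bases before 1 start site of each are printed here from RefSeq (GRCm38.p6, 5′ to 3′ on the gene's strand, minus for all 3). The window of Atp5g2 ends where the annotated gene begins. That of Atp5g1 reaches 63 bases into the gene, and that of Atp5g3 lies wholly within it, before a start site 1138 bases inside the gene's 5′ end, so the outermost start of Atp5g3 is not shown.
Atp5g1, chr11:96075632-96075881: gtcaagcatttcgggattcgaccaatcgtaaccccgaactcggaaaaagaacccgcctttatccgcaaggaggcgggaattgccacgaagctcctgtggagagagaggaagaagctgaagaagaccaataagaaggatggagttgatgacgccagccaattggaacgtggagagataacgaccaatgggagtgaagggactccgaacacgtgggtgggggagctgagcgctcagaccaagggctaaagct
Atp5g2, chr15:102671048-102671297: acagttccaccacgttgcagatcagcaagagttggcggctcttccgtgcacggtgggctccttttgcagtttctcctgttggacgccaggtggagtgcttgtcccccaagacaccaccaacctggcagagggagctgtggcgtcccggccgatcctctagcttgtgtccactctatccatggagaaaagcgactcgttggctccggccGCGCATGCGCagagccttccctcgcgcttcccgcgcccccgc
Atp5g3, chr2:73911327-73911576: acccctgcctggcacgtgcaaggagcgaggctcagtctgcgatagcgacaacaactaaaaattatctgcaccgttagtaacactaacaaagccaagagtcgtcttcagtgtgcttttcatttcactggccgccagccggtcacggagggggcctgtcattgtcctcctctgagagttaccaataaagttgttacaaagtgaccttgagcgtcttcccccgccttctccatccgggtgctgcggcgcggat
Capitals mark a match to the 10-letter core motif of nuclear respiratory factor 1 (NRF1), a known activator of respiratory chain genes, with 1 free letter inside and searched on both strands. Atp5g2 holds it and the windows of Atp5g1 and Atp5g3 do not. The GC content was 53.6%, 62.8% and 54.0% for Atp5g1, Atp5g2 and Atp5g3. Of the 75 members, 63 matched a RefSeq promoter, and 9 of those (14.3%) held the motif in the same window, against 4.23% of 27025 genes. The others were Atp5c1, Atp5h, Atp5k, Cox6a1, Ndufa5, Ndufa8, Ndufb4 and Ndufs5. The motif CCGGAAGT of GABPA, another activator of such genes, was in 3 members (4.76%: Atp5h, Uqcr11 and Uqcrh) against 3.23% of genes, and a 10-letter motif of YY1 in 1 (1.59%: Atp5j) against 0.359%. These are matches of letters and not measured binding.

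Complex I had 26 of 35 members higher and 1 lower, with a median of 0.27. Among the 6 nuclear core subunits measured, most of which carry iron-sulfur clusters, 4 were higher, with a median of 0.44. Ndufs7 and Ndufs8, the cluster-bearing subunits next to the ubiquinone site, differed by 0.78 (1.72-fold) and 0.69 (1.62-fold). Ndufs8 had 12.19, 12.4 and 12.54 in bound arrays as lowest, median and highest, against 11.32, 11.5 and 11.81 in unbound arrays, with no overlap. Ndufs3 differed by 0.68 and Ndufs1, the largest core subunit, by 0.20. The pair at the NADH-binding tip did not pass on the probe sets used: Ndufv1 stood at -0.01 (adjusted p = 0.0608) and Ndufv2 at 0.07 (adjusted p = 0.175). Other probe sets of Ndufv2 gave 0.49 at a mean of 12.14 and 0.06 at a mean of 12.02. Those of Ndufv1 gave 0.10 and 0.15. The accessory subunit Ndufa7 showed the widest difference of the complex, with 11.43, 12.18 and 12.84 in bound arrays, against 10.3, 10.42 and 10.68 in unbound arrays (1.55 ± 0.24, 2.93-fold). Ndufs5 (1.39), Ndufa8 (1.14) and Ndufc2 (1.09), all accessory subunits, followed. Ndufa4, a subunit since assigned to complex IV, was only 0.13 higher, and its paralogue Ndufa4l2, known as a hypoxia-induced gene, did not pass (-0.14, adjusted p = 0.884). Ndufa10 (-0.25, adjusted p = 0.29) did not pass. Ndufb4 was lower in bound RNA, -1.46 ± 0.12, but at 2.24 to 3.18 in bound arrays and 3.29 to 5.04 in unbound arrays its only usable probe set gave a dim signal in both.

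Complex IV ranged from -1.30 to 3.16, with 10 of 15 members higher, 2 lower and a median of 0.28. Its extremes in both directions were tissue-biased isoforms. The highest, Cox6b2, Cox7b2, Cox7a1 and Cox8b, were weak in unbound arrays, near or below the median of all probe sets there, 5.67. Their ratios are thus taken against a weak signal, unlike those of the bright general isoforms. Cox6b2, best known from testis, had 8.8, 9.44 and 10.08 in bound arrays as lowest, median and highest, against 5.38, 6.21 and 7.02 in unbound arrays. The groups were far apart, at 3.16 ± 0.21, or 8.96-fold (adjusted p = 8.46e-12). Its general paralogue Cox6b1 had 13.32, 13.45 and 13.56 in bound arrays, against 12.87, 13.01 and 13.11 in unbound arrays, a difference of 0.28 ± 0.06, or 1.22-fold. Cox7a1, the heart and skeletal muscle isoform, had 7.46, 8.5 and 9.04 in bound arrays, against 5.5, 5.97 and 6.15 in unbound arrays (2.33 ± 0.17, 5.03-fold, adjusted p = 1.9e-11). Cox7a2, the general isoform, had 13.29, 13.42 and 13.56 in bound arrays, against 12.9, 13.09 and 13.18 in unbound arrays (0.19 ± 0.06, 1.14-fold). The related Cox7a2l, which links complexes III and IV in supercomplexes, was lower in bound RNA (-0.55 ± 0.14, adjusted p = 0.0174), with 11.92, 12.39 and 12.71 in bound arrays and 12.57, 12.77 and 12.93 in unbound arrays. That call was lost in animals 4 to 6 alone (adjusted p = 0.715).

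The Cox6a pair ran the other way. Cox6a2, the muscle isoform, had 6.99, 7.53 and 8.38 in bound arrays, against 8.29, 8.69 and 9.12 in unbound arrays, and was lower in bound RNA by -1.30 ± 0.17, a ratio of 0.407 (adjusted p = 3.56e-06), the ranges overlapping slightly. Cox6a1, the general isoform, had 12.99, 13.26 and 13.44 in bound arrays, against 12.55, 12.82 and 13.11 in unbound arrays (0.29 ± 0.07). In the Cox8 set, Cox8a, the general isoform, had 11.82, 12.49 and 13.15 in bound arrays, against 10.79, 11.03 and 11.25 in unbound arrays (1.28 ± 0.23, 2.42-fold). Cox8c, a testis isoform, did not pass (-0.30, adjusted p = 0.176). Cox7b2, another testis isoform, was 2.40 ± 0.27 higher in bound RNA, from 5.26 to 7.44 in bound arrays against 2.71 to 4.93 in unbound arrays. The promoters of the Cox6b pair, whose members differ most, read as follows (RefSeq, GRCm38.p6, minus strand, 5′ to 3′), with none of the 3 motifs in either.
Cox6b2, chr7:4753095-4753344: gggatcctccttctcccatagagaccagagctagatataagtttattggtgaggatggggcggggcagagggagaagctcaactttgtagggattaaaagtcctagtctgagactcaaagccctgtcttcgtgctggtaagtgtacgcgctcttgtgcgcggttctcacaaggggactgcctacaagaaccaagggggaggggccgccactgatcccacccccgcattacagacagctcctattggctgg
Cox6b1, chr7:30626115-30626364: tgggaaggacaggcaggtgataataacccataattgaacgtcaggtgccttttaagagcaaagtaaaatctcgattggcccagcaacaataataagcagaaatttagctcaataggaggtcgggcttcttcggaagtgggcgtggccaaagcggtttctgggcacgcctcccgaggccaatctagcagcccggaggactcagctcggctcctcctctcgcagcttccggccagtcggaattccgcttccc
Both are on chromosome 7, with a GC content of 54.8% for Cox6b2 and 54.0% for Cox6b1.

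Cox8b, a heart and muscle isoform in mouse, was 2.25 ± 0.54 higher in bound RNA, or 4.76-fold (adjusted p = 0.000449), with the widest spread of any isoform shown here. It had 6.04, 9.01 and 11.0 in bound arrays as lowest, median and highest, against 5.65, 6.47 and 6.98 in unbound arrays. The markers of choroid plexus and ependyma moved with it, a pattern chosen after its values were seen. The 8 bound arrays with the lowest Cox8b, 6.04 to 8.19, were the same 8 with the lowest mean of those markers, 5.25 to 6.53. The other 10 had 8.9 to 11.0 for Cox8b and 7.68 to 8.78 for the markers. As a list these markers had 3 of 6 members higher in bound RNA, none lower and a median of 1.40, and their part in the Cox8b difference was not tested.

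**Figure D2:**
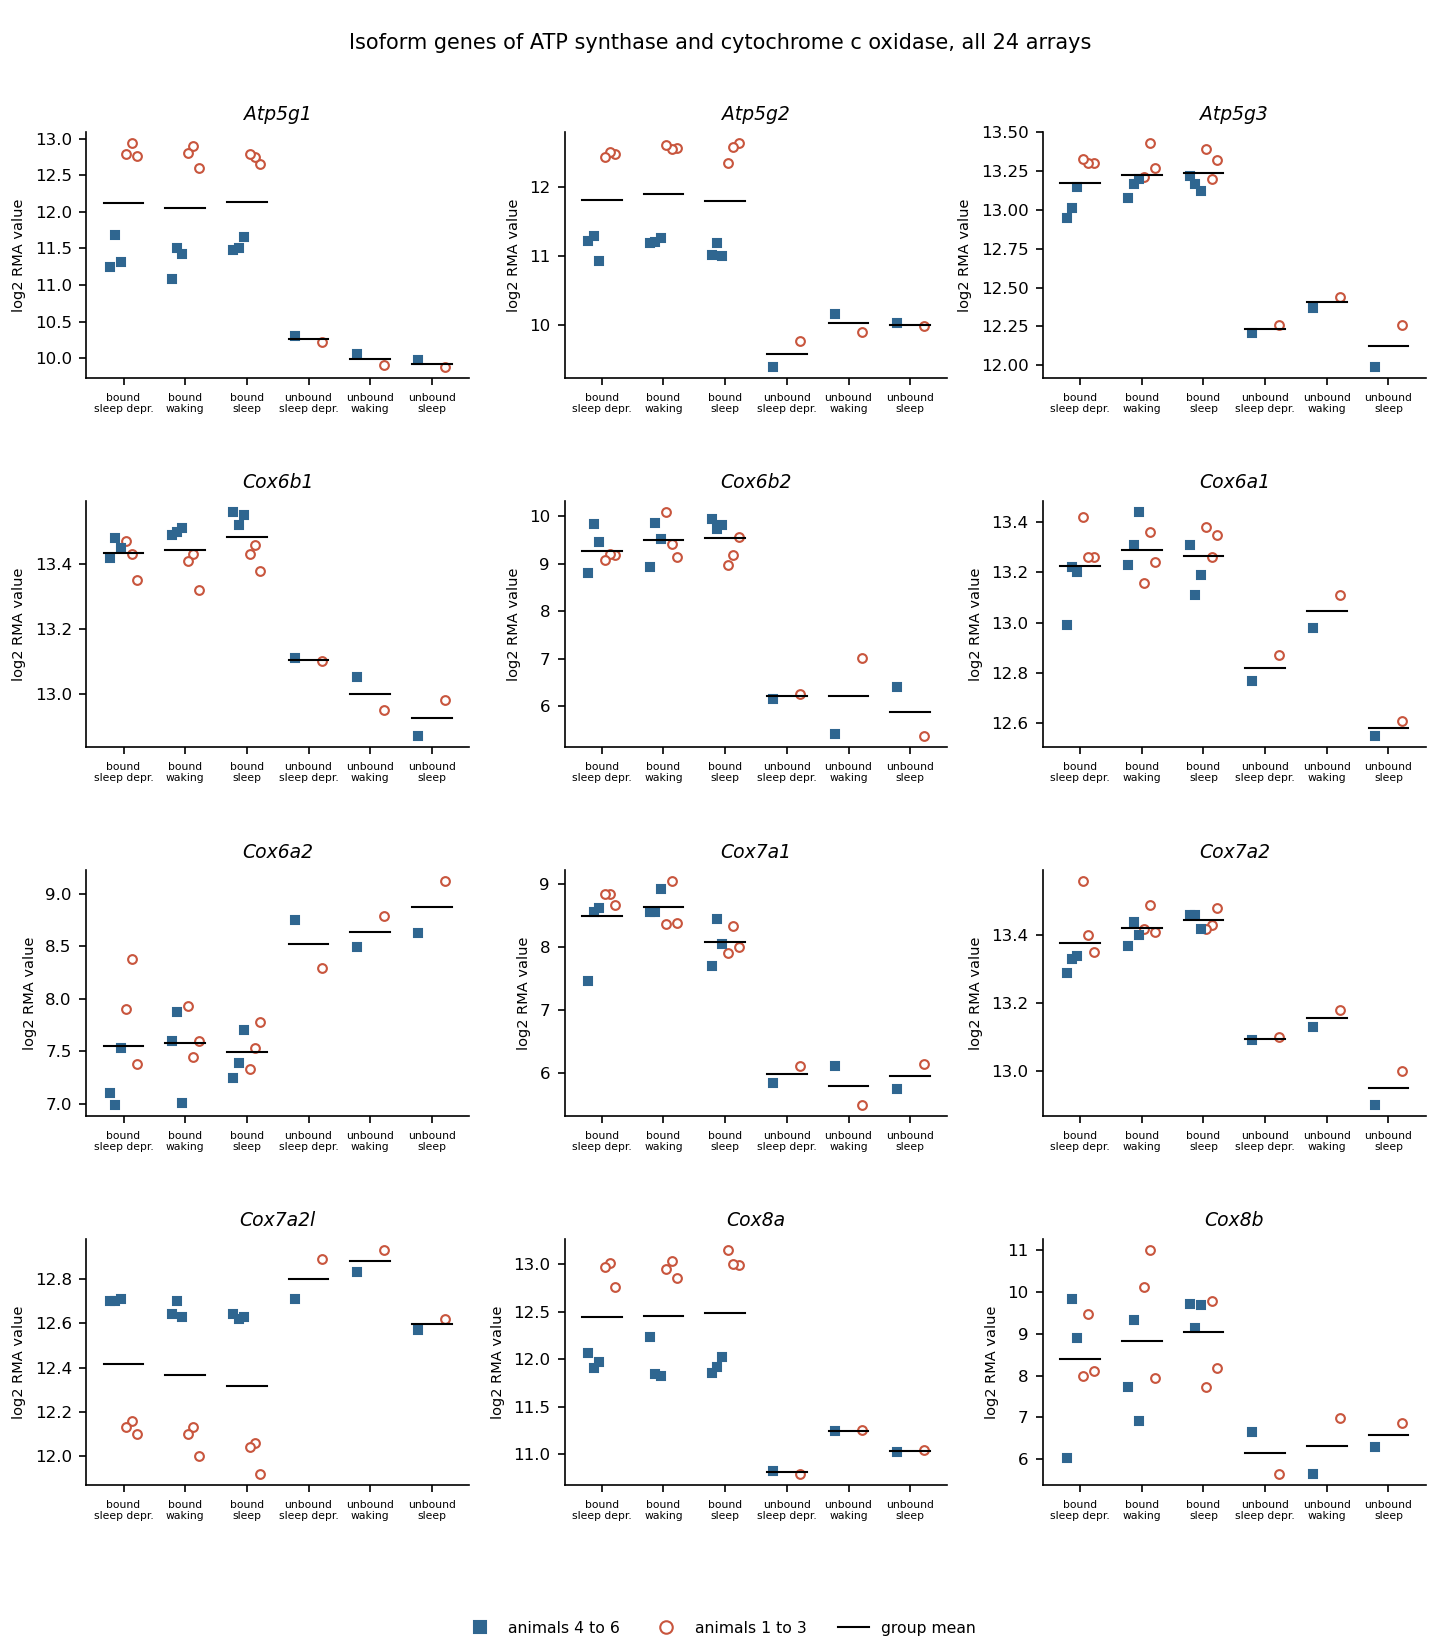
Log2 intensity (y axis) of 12 paralogues of complexes IV and V on each of the 24 arrays, by group (x axis). Blue squares are arrays of animals 4 to 6, open red circles those of animals 1 to 3, and black lines are group means; Atp5g1 and Atp5g2 split by animal set within every bound group, and Cox8b scatters from 6.04 to 11.0 in the bound arrays and from 5.65 to 6.98 in the unbound arrays.

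Different probe sets of a gene did not always show the same difference. Of the 45 members with several probe sets, all lay above the median gene in 24, all lay below it in 6, 13 had both signs, and 2 had a probe set at 0.00 with no conflict of sign. The range within a gene had a median of 0.53 and exceeded 1 in 13 genes. Ndufa7 was higher in all 5 probe sets (1.55 to 2.57), as was Ndufs8 in all 6 (0.53 to 1.45), and Cox7a2l was lower in all 3 (-0.63 to -0.39). Atp5g1 gave 1.89 on the probe set used here, with a mean of 11.59, and -1.54 on its other, with a mean of 6.62.

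Other mitochondrial genes are given for context, with the same 42.2% and 27.2% of all genes called higher and lower in bound RNA. Complex II, succinate dehydrogenase, had 5 of 6 genes higher and 1 lower (Sdhb 0.76, Sdha -0.50). Assembly factors had 27 of 39 higher and 6 lower, with a median of 0.38. Mitochondrial ribosomal proteins had 67 of 76 higher and 1 lower, with a median of 0.78, and cytosolic ribosomal proteins 37 of 49 higher and 2 lower, with a median of 0.33. The citric acid cycle had 7 of 13 higher and 1 lower, with a median of 0.08, led by Suclg2 (3.95) and Idh2 (3.54). Of 15 regulators of mitochondrial biogenesis 5 were higher and 2 lower, among them Nfe2l2 (3.55) and Ppargc1b (-2.12). Subunits outside the naming rule had 4 of 4 higher, including Cox4i2 (2.20), a hypoxia-responsive isoform, and Cox4i1 (0.33), its general paralogue. The mitochondrially encoded ND5, a core subunit of complex I made on mitochondrial ribosomes that carry no tag, was lower in bound RNA by -4.73.

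Between states, the bound fraction asked whether respiratory chain transcripts on astrocyte ribosomes vary with sleep and wake. Few members changed. Sleep-deprived against sleeping mice gave 2 higher and 0 lower of 75 (12.3% and 2.02% of all genes; 3 members at an unadjusted p under 0.05), waking against sleeping mice 0 and 1 (9.07% and 2.14%; 5 members), and sleep-deprived against waking mice 1 and 0 (4.17% and 2.67%; 4 members). The members' median difference was -0.12, -0.08 and -0.06 in the same order of comparisons, and 4, 13 and 22 of 75 lay above the median gene. As fitted, the median gene itself was 0.11, 0.09 and 0.02 higher. With each array centred on its median, sleep-deprived against sleeping mice gave 1 higher and 3 lower (7.23% and 3.23% of all genes), the lower ones being Ndufa13, Ndufa9 and Ndufs8, and with quantile normalization repeated 0 and 0. By complex the medians in sleep-deprived minus sleeping mice were -0.11 for complex I, -0.13 for complex III, -0.15 for complex IV and -0.12 for complex V. In waking minus sleeping mice they were -0.10, -0.08, -0.10 and -0.07.

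The intervals were narrow enough to bound these differences. The 95% interval lay within 0.5 log2 units of the median gene in 55 of 75 members for sleep-deprived against sleeping mice, 59 for waking against sleeping mice and 59 for sleep-deprived against waking mice, while 31.3%, 32.4% and 34.8% of all genes met the same limit. The members' median SE was 0.11 against 0.18 for all genes. Atp5b, for example, differed by -0.02 (95% interval -0.18 to 0.13) and Cox5b, a zinc-binding subunit of complex IV, by -0.15 (-0.30 to 0.01) in sleep-deprived minus sleeping mice. Intervals were widest for Cox8b, -2.21 to 0.70 in that comparison, where the 6 markers of choroid plexus and ependyma had a median of -1.10 and none passed.

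**Figure D3:**
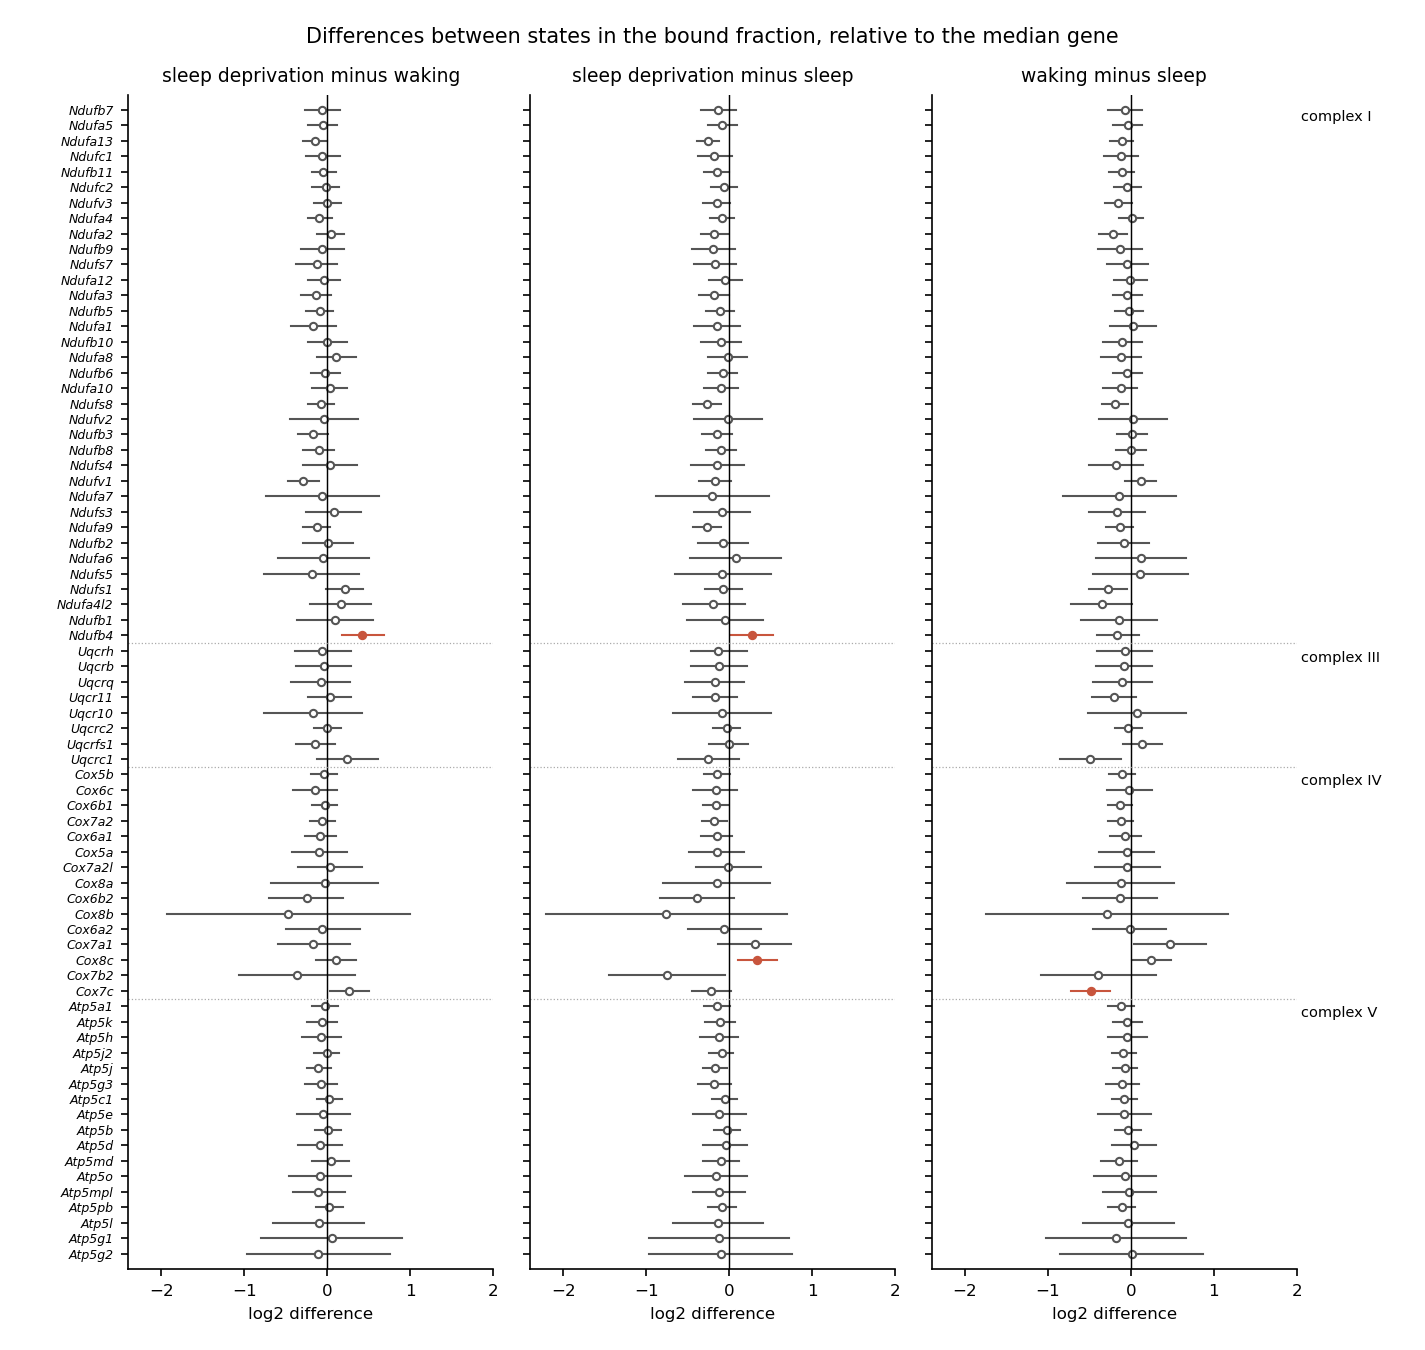
Log2 difference relative to the median gene (x axis) of all 75 members in the bound fraction, with 95% intervals, in 3 panels: sleep-deprived minus waking, sleep-deprived minus sleeping and waking minus sleeping mice. Most points sit slightly left of 0, and the panels hold 1, 2 and 1 members past the threshold.

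The members called between states in bound RNA by the main fit, which held no block for animal set, were all dim. Brighter members such as Uqcrc1 passed in fits with a block, as given below. In the bound arrays Cox7c, Ndufb4 and Cox8c were the 3 members whose mean fell below 5.79, the median of all probe sets there. With genes below it left out, 0 of the remaining 72 members passed in any of the 3 comparisons (limma without a block). At an unadjusted p under 0.05 there were then 0 members for sleep-deprived against sleeping mice, 3 for waking against sleeping mice and 1 for sleep-deprived against waking mice. The share of all genes at that unadjusted p is not given here. The unadjusted counts, in this and other paragraphs, therefore have no background beside them. Cox8c had a lowest, median and highest value of 5.71, 5.97 and 6.13 in sleep-deprived mice, against 5.18, 5.55 and 5.65 in sleeping mice. The groups did not overlap, and the difference was 0.34 ± 0.11 (0.46 as fitted, adjusted p = 0.0101; 0.00271 to 0.142 over the alternatives). Ndufb4, an accessory subunit of complex I, had 2.79, 3.05 and 3.18 in sleep-deprived mice, against 2.24, 2.53 and 3.05 in waking mice and 2.44, 2.69 and 2.77 in sleeping mice. It was higher in sleep-deprived than in waking mice by 0.42 ± 0.12 (adjusted p = 0.0315; 0.00491 to 0.247) and higher than in sleeping mice by 0.27 ± 0.12 (adjusted p = 0.0413; 0.0161 to 0.242). Cox7c, a small subunit of complex IV, had 1.92, 2.12 and 2.32 in waking mice, against 2.31, 2.53 and 2.68 in sleeping mice, a difference of -0.48 ± 0.11 (adjusted p = 0.0276; 0.0126 to 0.323). Its other probe set was dim as well, with a mean of 2.19.

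Arrays of the 2 groups were fully separate in few members. Sleep-deprived mice lay above sleeping mice throughout in Cox8c and Ndufb4 and below them in Ndufa13, where 7.44% and 1.02% of all genes did so. They lay below waking mice in Ndufa13 and above them in no member, where 1.84% and 3.01% of all genes did so, and waking and sleeping mice were separate in no member (6.01% and 1.24% of all genes). Ndufa13, also called GRIM-19, is an accessory subunit needed to assemble complex I. Its bright probe set gave 13.42, 13.48 and 13.52 in sleep-deprived mice as lowest, median and highest, against 13.53, 13.61 and 13.65 in waking mice and 13.57, 13.62 and 13.68 in sleeping mice. The difference from sleeping mice was -0.26 ± 0.07 relative to the median gene and -0.14 as fitted, and it did not pass (limma, adjusted p = 0.176). It passed with arrays centred (0.0268) and with an intensity trend in the variance (0.0169). It did not pass with quantile normalization repeated or with either block. Within animals 1 to 3 (-0.21, adjusted p = 0.516) and animals 4 to 6 (-0.31, adjusted p = 0.348) it did not pass either. Markers of red blood cells moved between the states too, with 3 of 3 higher in sleep-deprived than in sleeping mice. Their mean was 4.53 to 4.92 in sleep-deprived mice, 4.34 to 4.72 in waking mice and 3.93 to 4.22 in sleeping mice, and its part in the differences of Cox8c and Ndufb4 was not tested.

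Animals 1 to 3 and animals 4 to 6 of each state stood apart in the bound arrays, and with the replicate number as a block 3 members differed between waking and sleeping mice in place of 1: 1 higher and 2 lower (13.2% and 3.66% of all genes). Uqcrc1 gained most. It had 10.83, 10.81 and 10.68 in waking mice 1 to 3, against 11.1, 11.29 and 11.21 in sleeping mice 1 to 3, and 10.28, 10.13 and 10.33 in waking mice 4 to 6, against 10.52, 10.61 and 10.72 in sleeping mice 4 to 6. Waking mice lay below sleeping mice in both sets, by -0.51 ± 0.11 in animals 1 to 3 and -0.47 ± 0.12 in animals 4 to 6. The difference was -0.49 ± 0.17 without the block (adjusted p = 0.167) and -0.49 ± 0.07 with it (adjusted p = 0.00275). A single probe set, with a mean of 10.41, measures Uqcrc1. Cox7a1 was 0.47 higher in waking than in sleeping mice, passing with the replicate number as block (adjusted p = 0.0346) and missing without it (adjusted p = 0.096) or with the animal set as block (adjusted p = 0.0646). It had 8.37, 8.55 and 9.04 in waking mice, against 7.7, 8.02 and 8.44 in sleeping mice. Between sleep-deprived and waking mice the block gave 2 higher members in place of 1 (6.52% of all genes), Ndufb4 and Uqcrc1 (0.24, adjusted p = 0.0361). Between sleep-deprived and sleeping mice it added Cox7b2 as a lower member (-0.75, adjusted p = 0.0451), where 3.59% of all genes were lower. With the animal set as block, 4 members passed between waking and sleeping mice, Cox8c (0.24) and Uqcrfs1 (0.14, adjusted p = 0.043) higher and Cox7c and Uqcrc1 lower (14.5% and 4.13% of all genes). Between sleep-deprived and waking mice that block gave Ndufb4 and Uqcrc1 higher and Ndufv1 lower (-0.29, limma, adjusted p = 0.0484), beside 7.31% and 4.59% of all genes. Between sleep-deprived and sleeping mice it gave Cox8c (adjusted p = 0.00271) and Ndufb4 (0.0168) higher and Cox7b2 lower (-0.75, adjusted p = 0.0207). There 18.8% and 3.72% of all genes were called.

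**Figure D4:**
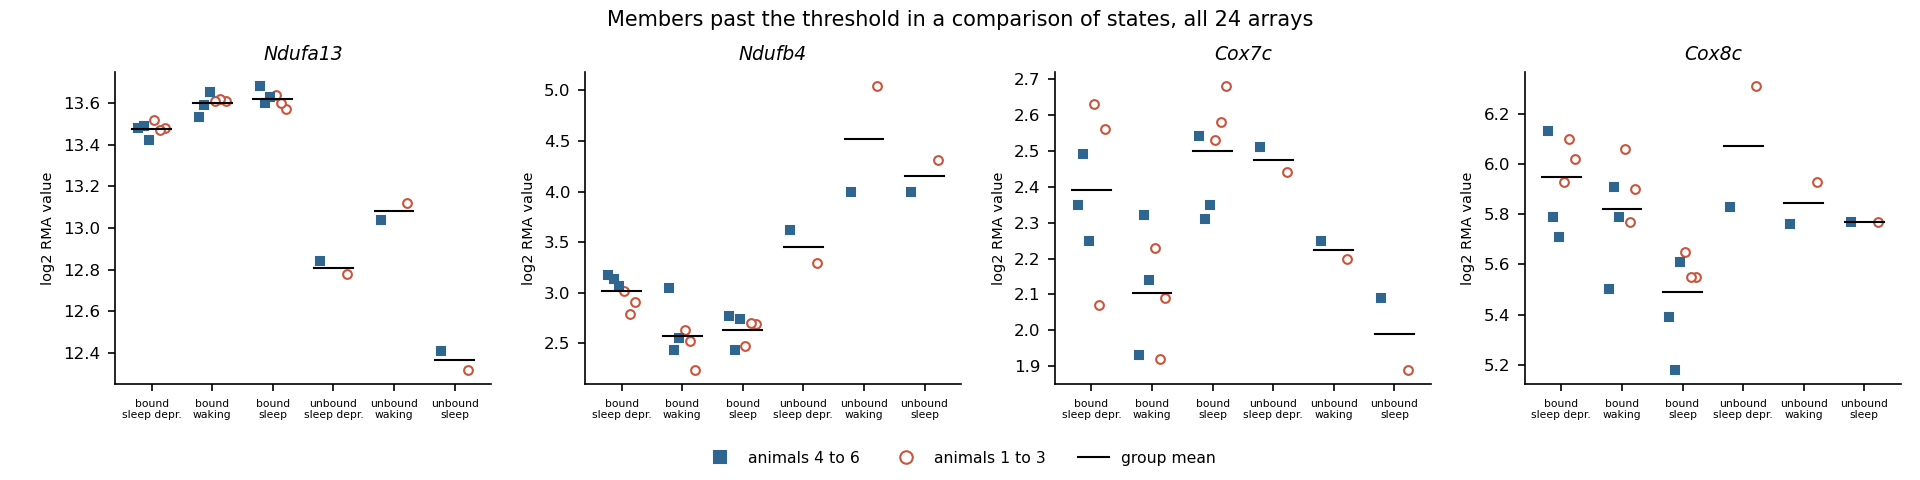
Log2 intensity (y axis) of Ndufa13, Ndufb4, Cox7c and Cox8c on each of the 24 arrays, by group (x axis), marked by animal set as squares (animals 4 to 6) or open circles (animals 1 to 3), with group means as lines. Ndufa13 spans 13.42 to 13.68 in the bound arrays and 12.32 to 13.12 in the unbound arrays, and the other 3 genes reach at most 6.31.

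Most genes of the following lists around the chain did not pass in bound RNA. In sleep-deprived against sleeping mice 2 of 39 assembly factors were higher, the copper chaperone Cox19 (0.52) and the ATP synthase assembly factor Tmem70 (0.27), and none lower. Of 15 regulators 3 were higher, Gabpb1 (0.69), the GABP partner subunit, Pprc1 (0.59), a coactivator related to PGC-1, and Nfe2l2 (0.30), and the list's median was 0.22. Of 76 mitochondrial ribosomal proteins 6 were higher and of 49 cytosolic ones 2. None of the 6 complex II genes and none of 13 genes for cytochrome c and coenzyme Q passed in either direction. These counts stand beside the same 12.3% and 2.02% of all genes. In waking against sleeping mice Cox19 (0.60), Coa6 (0.30), another assembly factor of complex IV, and the outer membrane channel Vdac3 (0.26) were higher.

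In the unbound pools, with 2 arrays per state, Ndufa13 was the single member called. It had 12.78 and 12.84 in sleep-deprived mice, 13.12 and 13.04 in waking mice and 12.32 and 12.41 in sleeping mice, so that the 3 states did not overlap. Waking lay above sleep by 0.41 ± 0.15 (0.72 as fitted, adjusted p = 0.048), where 5.71% of all genes were higher and 0.605% lower. The call was kept in 2 of 12 alternatives and lost in 10 (limma, adjusted p = 0.00603 to 0.218). With quantile normalization repeated, or with arrays centred on their median, 0 of all genes were called in this comparison. None passed between sleep-deprived and sleeping mice (limma; 3 members at an unadjusted p under 0.05; 1.42% and 0.451% of all genes) or between sleep-deprived and waking mice (7 members; 0.242% and 0.517%). Uqcrh, the hinge protein of complex III, had 11.8 and 11.78 in sleep-deprived mice, against 12.5 and 12.7 in waking mice and 12.43 and 12.19 in sleeping mice. The sleep-deprived pools were lowest, but the difference from waking of -0.69 ± 0.17 did not pass (adjusted p = 0.0799).

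The difference of the state differences between fractions was tested directly. For waking against sleeping mice it was negative for Ndufa13, -0.52 ± 0.13 (-0.74 as fitted, adjusted p = 0.00155), the 1 member called lower, with 0 called higher, beside 3.71% and 1.89% of all genes. Ndufa13 was thus higher in waking than in sleep in the unbound pools by more than in bound RNA, where it differed by -0.11. For sleep-deprived against sleeping mice Ndufa13 was again negative, -0.53 ± 0.13 (adjusted p = 0.00796; 6.06e-05 to 0.0898 over the alternatives), and Ndufb4 positive, 1.15 ± 0.30 (adjusted p = 0.0405; 0.012 to 0.227), beside 1.98% lower and 2.91% higher of all genes. The members' medians were -0.01 and -0.09. With the block, Ndufs1 was also lower for waking against sleeping mice (-0.31, limma, adjusted p = 0.035), where 5.61% of all genes were lower. For sleep-deprived against sleeping mice the block added Cox7b2 as lower (-1.33, adjusted p = 0.0227), where 2.97% of all genes were lower.

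Splitting the bound arrays by animal set, a comparison added after the data had been seen, gave more calls among members than any state. The precision differed too. The split set 9 arrays against 9 with state in the fit, and the members' median SE was 0.05. The main state fits set 6 against 6 without a block, and the median SE was 0.11. Animals 4 to 6 against animals 1 to 3 gave 20 higher and 27 lower of 75, where 22.9% and 21.0% of all genes were called, and in 12 and 17 members the sets did not overlap (6.1% and 6.27% of all genes). The labels give these sets only as the animals pooled for the unbound arrays. The Gapdh 3′ minus 5′ signal was 0.97 to 1.04 in animals 4 to 6 and 0.31 to 0.46 in animals 1 to 3, while the Actb signal overlapped, at -0.42 to -0.16 in animals 4 to 6 and -0.28 to -0.06 in animals 1 to 3. Between states in bound RNA the Gapdh signal ran over the same range, from 0.31 to 1.02 in sleep-deprived, 0.33 to 1.04 in waking and 0.32 to 1.03 in sleeping mice. The Actb signal there was -0.38 to -0.24, -0.42 to -0.21 and -0.35 to -0.06 in the same order, with means of -0.29, -0.30 and -0.19. In the unbound pools it did not overlap between states, at -0.45 and -0.39 in sleep-deprived, 0.01 and 0.04 in waking and -0.12 and -0.06 in sleeping mice. The part of these signals in the differences between animal sets and states was not tested.

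The lowest differences were those of Atp5g1 and Atp5g2, while Atp5g3, which encodes the same subunit c, differed by -0.20. Over the alternatives the difference of Atp5g1 as fitted was -1.44 to -0.21 (limma, adjusted p = 5.71e-10 to 0.16). Atp5g1 was 11.08 to 11.69 (mean 11.44 ± 0.20, SD, n = 9) in animals 4 to 6 and 12.6 to 12.94 (12.78 ± 0.11, n = 9) in animals 1 to 3, a difference of -1.35 ± 0.08 (limma, adjusted p = 8.98e-10). Atp5g2 was 10.92 to 11.29 in animals 4 to 6 and 12.34 to 12.63 in animals 1 to 3 (-1.39 ± 0.06, adjusted p = 4.48e-11). Ndufa7 (-1.09) and Cox8a (-1.02) were lower as well, and these genes too were fully separate between the sets. Higher in animals 4 to 6 were Ndufv2, at 12.4 to 12.62 against 11.78 to 12.08 in animals 1 to 3 (0.62), Cox7a2l, at 12.62 to 12.71 against 11.92 to 12.16 (0.58), Uqcrb (0.46) and Ndufs4 (0.45). Probe sets disagreed here too: 15 of the 20 higher members had another probe set that was not dim, and in 8 of them at least 1 such probe set had the opposite sign. For Ndufv2 a second probe set of equal brightness gave -0.01 and another 0.54, and for Ndufb5 and Ndufc1, at 0.13 and 0.23 on the probe sets used, the other gave -0.91 and -1.10. Of the 27 lower members 10 had another such probe set. In Atp5g1 it was higher (0.93), and in Uqcrh it showed almost no difference (0.02). Ndufa13 (-0.02, 95% interval -0.11 to 0.08) and Ndufs8 (-0.03, -0.15 to 0.09) did not pass. Complex III had 6 of 8 members lower and 1 higher, with a median of -0.43. Complex I had 14 higher and 10 lower of 35, complex IV 2 and 3 of 15, and complex V 3 and 8 of 17. The median over complex V was 12.74 to 12.91 in animals 4 to 6 and 13.08 to 13.16 in animals 1 to 3.

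**Figure D5:**
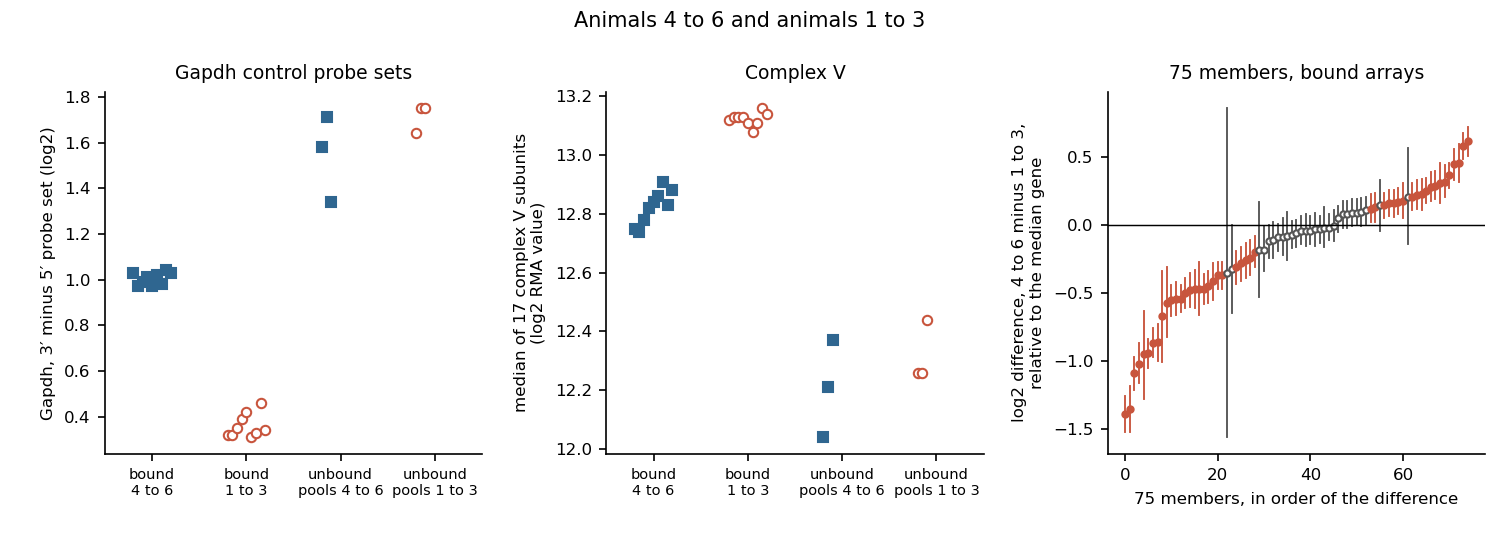
Bound and unbound arrays by animal set: Gapdh 3′ minus 5′ log2 signal per array, the complex V median log2 intensity per array, and the log2 difference of the 75 members between bound arrays of animals 4 to 6 and animals 1 to 3 with 95% intervals (filled red past the threshold, open grey not). Bound arrays of animals 4 to 6 have Gapdh values of 0.97 to 1.04 against 0.31 to 0.46 in animals 1 to 3, and member differences run from -1.39 to 0.62.

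Fraction differences were also computed within each set. Within animals 4 to 6 and animals 1 to 3, bound minus unbound was 1.14 and 2.64 for Atp5g1, 1.10 and 2.50 for Atp5g2, 0.75 and 1.81 for Cox8a and 0.93 and 2.16 for Ndufa7. It was close in both sets for Cox6b2 (3.36 and 2.96), Cox7a1 (2.23 and 2.43), Atp5g3 (0.74 and 0.85) and Ndufa13 (0.62 and 0.70). In animals 4 to 6 alone 63 members were higher in bound RNA and 2 lower (36.6% and 21.3% of all genes), and in animals 1 to 3 alone 50 were higher and 3 lower (39.3% and 28.8%).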

How the data were processed

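Bound and unbound RNA was measured on 24 Affymetrix mouse gene expression arrays, 18 bound and 6 unbound. The values are log2 intensities deposited by the authors, made with RMA per the submitters' processing notes; which arrays were normalized together is not given in the sources used here, and no column was left out. Of 45101 probe sets, 64 are controls, 34945 carry 1 gene symbol, 932 several and 9160 none. Symbols were checked against RefSeq GRCm38.p6, which also gave the promoter sequences. Genes were tested with limma 3.58.1 in R 4.3.3 (lmFit, eBayes, Benjamini-Hochberg over 18193 genes), with 6 groups over 24 arrays for the fractions and 3 groups within each fraction for the states. The main fit over 24 arrays used 1 shared spread for single mice and pools. It did not pair a pool with the bound arrays of the same mice. The scripts were tested on simulated data, and tables and figures were made with pandas 2.3.3, numpy 2.4.6 and matplotlib 3.10.9. The number of arrays limits the precision.

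The members, lists and tests were chosen with earlier results of these data known. Full values are given for members past the threshold in a state comparison, the 8 highest and 8 lowest in the fraction comparison, the core subunits of complex I, the paralogue sets and the brightest probe set of each complex; members called only with a block or another scaling, and those differing most between animal sets, were chosen once their values were known. Bound arrays with the same replicate number deviated together from their group means, with correlations of 0.268 to 0.53 over 18 pairs of arrays, but pairs of other numbers within the same set of animals did so equally, 0.246 to 0.532. The labels do not say what a number shares across states. Alternatives were quantile normalization repeated, centring on the median, dim genes left out, the mean of all probe sets of a gene, an intensity trend in the variance, the replicate number or animal set as a block, each animal set alone and each array left out.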

Additional observations from a re-analysis of the deposited data

Results flagged for a closer look

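Within groups of 6 bound arrays, 3 of 111 checks found an array far from the other 5, where chance gives about 1 in 20. Cox7a1 was 7.46 in sleep-deprived animal 6, below the other 5 arrays of that state. Ndufa10 was 12.01 in waking animal 2, and Ndufv1 was 11.67 in sleeping animal 6.

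Bound and unbound RNA differed in their state differences, tested as an interaction, for 2 members. Ndufa13 gave -0.52 for waking against sleeping mice and -0.53 for sleep-deprived against sleeping mice, relative to the median gene. Ndufb4 gave 1.15 for sleep-deprived against sleeping mice, at intensities of 2.44 to 4.31 in the 4 groups compared.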

How the results depend on the processing

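The fraction result gave 52 to 65 members called over its alternatives, against 60, and the members' median moved from 0.37 to 0.16 with quantile normalization repeated and to 0.50 with the mean of all probe sets. Leaving out each array gave 57 to 61 calls and a median of 0.35 to 0.39. Among the members given in full and called in the main fit, Ndufa4 was the 1 whose difference changed sign. It was -0.03 when arrays were centred and did not pass there (limma, adjusted p = 0.631). Within sleep the median was 0.23 with quantile normalization and 0.31 without dim genes, and centring left 38 calls; within waking the median was 0.19 with quantile normalization; within sleep deprivation it was 0.46 with the mean of probe sets. Leaving out arrays gave 46 to 61 calls in sleep, 33 to 44 in waking and 34 to 51 in sleep deprivation.

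In bound RNA, waking against sleep had 1 call, 0 with quantile normalization, without dim genes or in either animal set alone, 3 with the replicate block, 4 with the set as block and 0 to 2 with an array left out. Sleep deprivation against sleep had 2 calls, 0 with quantile normalization, without dim genes or in either set alone, 4 with centring (1 higher and 3 lower), 4 with the mean of probe sets and 1 to 2 with an array left out. Either block kept Cox8c and Ndufb4 there and added Cox7b2. Sleep deprivation against waking had 1 call, 0 with quantile normalization, without dim genes or in either set alone, 3 with the mean of probe sets, 2 with an intensity trend, 2 with the replicate block, 3 with the set as block and 0 to 1 with an array left out. Members' medians relative to the median gene stayed negative in all of these but came close to it. In the same order of comparisons they ran from -0.11 to -0.03, from -0.15 to -0.03 and from -0.07 to -0.01.

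In unbound RNA, waking against sleep had 1 call, 0 with quantile normalization, centring, the replicate block, without dim genes or with any array left out, 2 with the mean of probe sets and 18 with an intensity trend. Sleep deprivation against sleep had 1 with the mean of probe sets and 8 with the trend, and against waking 5 with the trend, in place of 0. In waking against sleep 44 members had an unadjusted p under 0.05 with the trend (limma), against 3 in the main fit. Shares of all genes called with the trend or the mean of probe sets are not given in this section. Those counts therefore have no background beside them. Same-numbered pools correlated at 0.001 to 0.029 and share only a number. The interaction for waking against sleep had 1 call, 5 with the trend and 2 with the replicate block. That for sleep deprivation had 2, 1 with quantile normalization, 0 without dim genes, 4 with the mean of probe sets and 0 to 2 with an array left out. With the replicate block Cox7b2 was called there besides Ndufa13 and Ndufb4. The animal sets gave 47 calls, 23 in sleep, 17 in waking and 16 in sleep deprivation alone, and 45 to 47 with an array left out. The fits of a single state held fewer arrays, and the shares of all genes called in them are not given here. The causes of the shifts in this section were not tested.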
